A study of Mus musculus with 2 samples.

Results

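The cluster named endothelial cells was 1 of 12 clusters that the authors defined among cells of digested mouse liver, and its members here are the genes that the authors' table lists for it against all other cells. Of the 1755 genes listed for any cluster, 98 (5.58%) were listed for this cluster. The table holds 3742 rows, and each row gives the share of cells with an expression value above 0 inside the cluster and the same share in all other cells. These shares are the values reported below, in percent of cells. Cells came from male wild type BALB/c mice, fasted before isolation and aged 8 to 10 weeks that received PBS or recombinant IL-33 (rIL-33, 0.5 µg) by daily intraperitoneal injection for 5 days, and the livers were digested by perfusion with Liberase without sorting, with 14000 to 16000 cells loaded per library. Each condition gave 1 library, 2 in all, and the number of mice per library is not given in the sources used here. The authors pooled both libraries in the table, so PBS and rIL-33 could not be compared, there are no replicates, and the depth per cell is unknown. The clusters were formed from the same expression values, so a cluster against the rest is described here without a test.

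Liver sinusoids are lined by fenestrated endothelial cells that take up proteins, immune complexes and lipids from the blood through scavenger, lectin and Fc receptors. Hepatic stellate cells (HSCs) lie beneath this lining, store retinoids and make matrix, and Kupffer cells are the macrophages inside the sinusoids. The 3 cell types lie side by side, and each is recognised by its own genes: Kdr and Clec4g for sinusoidal endothelium, Lrat and Dcn for stellate cells, and Clec4f and the C1q chains for Kupffer cells.

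All 4 genes given as markers of the cluster were listed for it, each in at most 50% of its cells. Kdr, the main VEGF receptor, was measured in 30.6% of the cluster against 5.4% of all other cells. Clec4g, a C-type lectin of sinusoidal endothelium, was found in 33.3% of the cluster against 14.8% of the other cells. Fcgr2b, the inhibitory Fc receptor that clears immune complexes, was found in 33.3% against 22%, and Fabp4, a fatty acid carrier of endothelium and fat cells, in 50% against 15.3%. The genes with the largest difference in share were matrix genes: Postn, Dcn and Sparc came first, ahead of Fabp4 and Gpihbp1. By ratio of shares, the first genes were Dnase1l3, Gpr182, Fam167b and Gpihbp1. Kdr, Clec4g and Fcgr2b were thus each measured in a minority of the cluster, and genes of matrix stood at the head of the list by difference. The cluster is called the cluster named endothelial here. From the balance of both shares over 1115 genes listed for at least 2 clusters, its relative size was 0.991% of the cells, against 0.171% for the cluster named HSC / fibroblast, 2.68% for Kupffer cells and 90.0% for the 5 hepatocyte clusters together.

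The promoters of 3 of these 4 markers are shown because these genes were given as markers of the cluster. The windows are from RefSeq on GRCm38.p6 and run from 250 bases before to 50 bases after the transcription start, 5′ to 3′ on the strand of the gene. Capitals mark matches on either strand to the motifs searched: one form of the core bound by ETS factors, CAGGAA, with another form of the same core, CCGGAA, then the site of the AP-1 factors, TGANTCA, the site of the GATA family of factors, AGATAA, the site of the SOX family of factors, AACAAT, and the box near the start of many genes, TATAAA. Matches to different motifs may overlap. The Kdr window is chr5:75978406-75978705 on the minus strand, with 1 match (an ETS core). The Clec4g window is chr8:3720602-3720901 on the minus strand, with 2 matches (an ETS core and, on the opposite strand, TATAAA). The Fcgr2b window is chr1:170976022-170976321 on the minus strand, with 0 matches.
Kdr: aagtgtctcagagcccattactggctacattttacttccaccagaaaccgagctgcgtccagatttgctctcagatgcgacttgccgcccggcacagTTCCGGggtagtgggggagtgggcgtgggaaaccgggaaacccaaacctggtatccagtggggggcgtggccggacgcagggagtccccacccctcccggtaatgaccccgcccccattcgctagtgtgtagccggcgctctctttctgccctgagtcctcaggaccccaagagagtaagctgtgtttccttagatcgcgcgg
Clec4g: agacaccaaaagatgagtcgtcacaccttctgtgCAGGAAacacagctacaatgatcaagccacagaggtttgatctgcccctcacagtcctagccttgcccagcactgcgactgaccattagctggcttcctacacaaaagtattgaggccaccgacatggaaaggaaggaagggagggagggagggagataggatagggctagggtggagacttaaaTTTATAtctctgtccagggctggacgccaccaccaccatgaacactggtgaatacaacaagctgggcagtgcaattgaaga
Fcgr2b: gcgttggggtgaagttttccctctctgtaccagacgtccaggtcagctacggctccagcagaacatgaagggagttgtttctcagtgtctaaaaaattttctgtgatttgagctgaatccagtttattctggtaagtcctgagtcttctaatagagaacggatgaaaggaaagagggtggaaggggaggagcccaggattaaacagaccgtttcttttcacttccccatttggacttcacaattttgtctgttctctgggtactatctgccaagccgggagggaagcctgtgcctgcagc

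RefSeq windows were found for 76 of the 98 genes, 110 windows in all. A window with either ETS core made up 42.2% of the 64 windows of genes with a higher share inside the cluster, 30.4% of the 46 windows of genes with a lower share, and 41.4% of all 32851 mouse windows. GATA matches were found in 4.7%, 2.2% and 11.2% of these windows, and SOX matches in 7.8%, 8.7% and 10.7%. None of the 6 motifs was more than 3 percentage points more common in the windows of genes with a higher share than in all windows.

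Of the 98 genes, 62 had a higher share inside the cluster than outside and 36 (36.7%) had a lower one. Over all 3742 rows of the 12 clusters, 229 (6.1%) had a lower share. Lower shares were also frequent in Hepatocyte3 (43.2% of its rows) and Hepatocyte1 (32.3%). The difference was at least 10 percentage points for 48 genes and at least 25 for 15, beside 3144 and 2335 of all 3742 rows. Inside the cluster, 8 of the 98 genes reached a share of 50%, beside 2218 of all 3742 rows. The 98 genes are described next by function, in groups that were formed after their names were seen.

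Proteins of the vessel wall were the group with the lowest median share in other cells. Of 14 such genes, 13 had a higher share inside the cluster, with a median of 28.7% inside and 5.45% outside, and 6 of them were found in under 5% of all other cells. Gpihbp1, which holds lipoprotein lipase on the capillary surface (chromosome 15 of GRCm38, 75596628 to 75599481), was found in 32.4% of the cluster against 1.3% of the other cells. Gpr182, a receptor of sinusoidal and lymphatic endothelium (chromosome 10, 127747276 to 127751732), was found in 27.8% against 0.6%. Adgrf5, an adhesion receptor of endothelium, stood at 27.8% against 2.0%, and Adam23, a membrane protein that binds integrins, at 27.8% against 2.2%. All 4 of these genes were thus rare outside the cluster and still absent from most of its cells as measured. Ptprb, the endothelial phosphatase that acts on the Tie2 receptor, was found in 38.0% against 9.1%, Egfl7, a secreted factor of vessel growth, in 38.0% against 11.8%, and Bmp2, the signal from sinusoidal endothelium that raises hepcidin in hepatocytes, in 28.7% against 4.0%. The water channel Aqp1 was found in 29.6% against 5.5%, and Pde2a, which breaks down cyclic nucleotides, in 28.7% against 4.3%. Kdr itself lies on chromosome 5 from 75932827 to 75978458, and 30 exons make up the longest transcript in the annotation. Smaller contrasts were measured for Plxnc1, a semaphorin receptor (25.9% against 7.1%), for the collagen receptor subunit Itga1 (34.3% against 18.5%) and for Cavin2, a coat protein of caveolae (26.9% against 16.7%). Adgrl2 was the exception, with 14.8% inside and 34.7% outside.

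**Figure D1:**
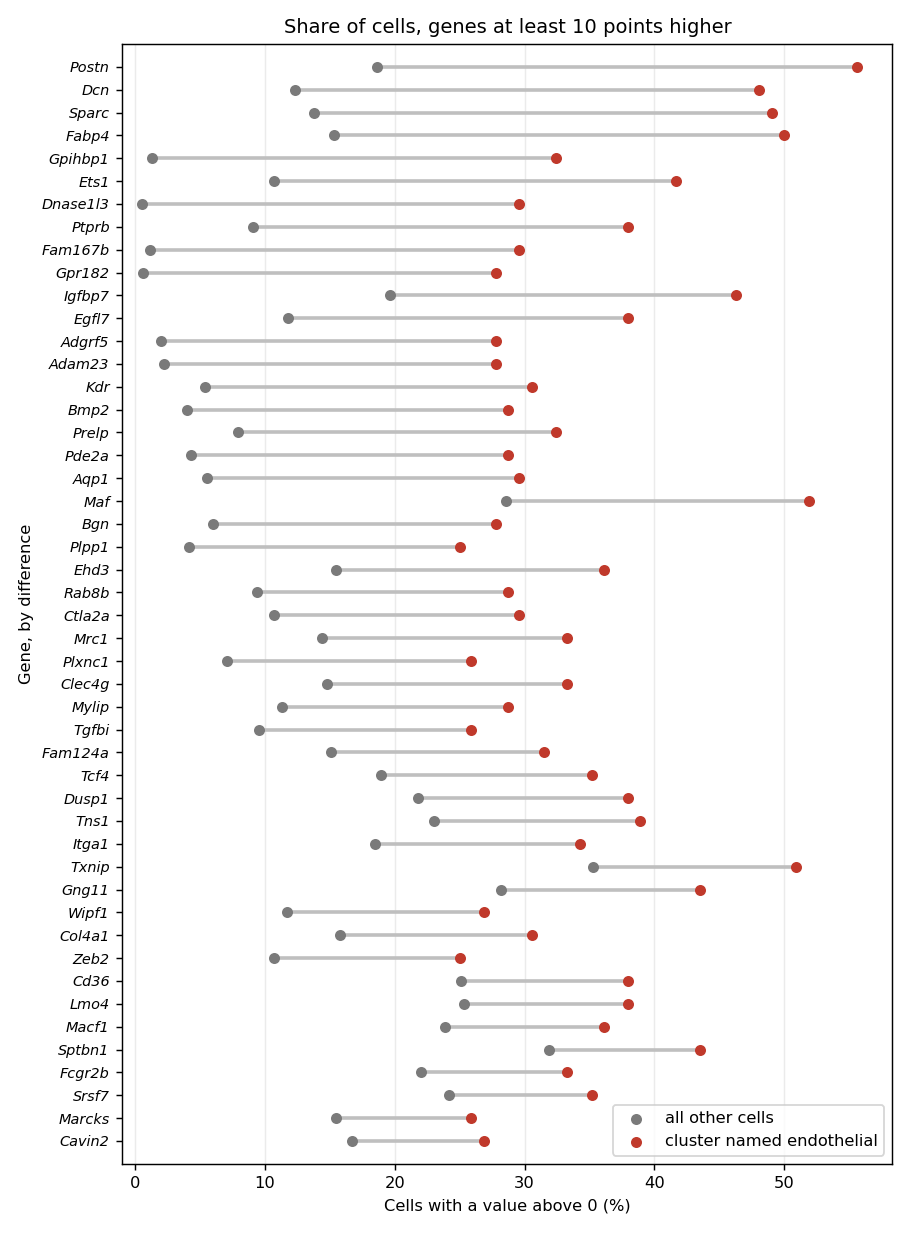
Share of cells above 0 (%, horizontal axis) for the 48 genes whose share was at least 10 percentage points higher in the cluster named endothelial (red) than in all other cells (grey), in order of the difference; both libraries are pooled and no error can be given. Postn, Dcn and Sparc head the list, and Gpihbp1, Dnase1l3, Fam167b and Gpr182 lie near 0 in the other cells.

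Genes of uptake and of the lysosome numbered 11, of which 9 had a higher share inside. Dnase1l3, a secreted enzyme that digests chromatin in plasma (chromosome 14, 7964533 to 7994573), had the largest ratio of all 98 genes: 29.6% of the cluster against 0.5% of the other cells, a ratio of 59.2. The mannose receptor Mrc1 was found in 33.3% against 14.4%, and Ehd3, which shapes endocytic vesicles, in 36.1% against 15.5%. For the fatty acid scavenger receptor Cd36 the shares were 38.0% and 25.1%. The contrast was smaller for the broadly expressed members of the group, with Ctsb at 53.7% against 47.0%, the sorting nexin Snx5 at 33.3% against 27.1% and the hyaluronidase Cemip2 at 25.9% against 21.9%. The lysosomal protease Ctsd (34.3% against 50.5%) and mannosidase Man2b1 (18.5% against 33.4%) had lower shares inside. Stab2, the hyaluronan scavenger receptor of sinusoidal endothelium, was not listed for the cluster.

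Matrix genes numbered 8, and all 8 had a higher share inside, by 14.8 to 37.0 percentage points. Postn, which encodes the matrix protein periostin (chromosome 3, 54361109 to 54391037), was found in 55.6% of the cluster against 18.6% of the other cells. The collagen-binding proteoglycan Dcn (chromosome 10, 97479609 to 97518143) was found in 48.1% against 12.3%, and Sparc (chromosome 11, 55394500 to 55423183), a calcium-binding matrix protein made by endothelial and stellate cells, in 49.1% against 13.8%. Igfbp7, which binds insulin-like growth factors, stood at 46.3% against 19.6%. These shares were the highest in the vessel and matrix groups, and they also came with 12.3% to 19.6% of positive cells elsewhere. Prelp (32.4% against 7.9%) and Bgn (27.8% against 6.0%), both small leucine-rich proteoglycans, and Tgfbi (25.9% against 9.5%) followed, with the basement membrane collagen Col4a1 at 30.6% against 15.8%. Of the fibrillar collagens, Col1a2, Col3a1 and Col5a1 were in the table and none was listed for the cluster.

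Among 15 transcription factors and chromatin proteins, 6 had a higher share inside. Ets1, a factor of endothelium and lymphocytes (chromosome 9, 32636221 to 32757820), was found in 41.7% against 10.7%, and Maf, a factor of sinusoidal endothelium and macrophages, in 51.9% against 28.6%. Tcf4 (35.2% against 18.9%) and Zeb2 (25% against 10.7%), which also act in mesenchymal cells, and the cofactors Lmo4 (38.0% against 25.3%) and Zfpm1 (38.0% against 30.9%) had smaller differences. The 5 genes other than Zfpm1 were each also listed for at least 3 other clusters.

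The remaining genes with higher shares were metabolic, signalling and cytoskeletal. Plpp1, which removes phosphate from signalling lipids, was found in 25% against 4.1%. The signalling group held Rab8b (28.7% against 9.4%), Mylip, which targets the LDL receptor for breakdown (28.7% against 11.3%), the phosphatase Dusp1 (38.0% against 21.8%), Txnip (50.9% against 35.3%), the G protein subunit Gng11 (43.5% against 28.2%) and Il6st, the shared receptor subunit of the IL-6 family (45.4% against 36.0%). Cytoskeletal genes with a higher share inside differed by at most 15.9 points, the value for Tns1, which links integrins to actin. Glul, which makes glutamine, was found in 38.9% against 32.5%. Across the metabolic, signalling, cytoskeletal, RNA-binding and secretory groups, 22 genes had a higher share and 20 a lower one, whereas all but 3 of the 33 vessel, uptake and matrix genes had a higher share.

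The share of all positive cells that lay in the cluster was computed from both shares and the relative size. For Dnase1l3, 37.2% of the cells with a value above 0 were in this cluster, and between 35.0% and 39.7% when rounding of the outside share is allowed for. For Gpr182 this was 31.7% (30.0% to 33.6%), for Fam167b 21.2%, for Gpihbp1 20%, for Adgrf5 12.2% and for Adam23 11.2%. The cluster held at least 10% of the positive cells for these 6 genes and at least 5% for 11 genes, beside its relative size of 0.991%. Together with the HSC / fibroblast cluster it held 52.0% of the Dnase1l3 cells and 47.2% of the Gpr182 cells. The values were far lower for the matrix genes: 3.77% for Dcn, 3.44% for Sparc and 2.90% for Postn. Most cells with a value above 0 for Kdr were also outside the cluster, which held 5.37% of them.

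**Figure D2:**
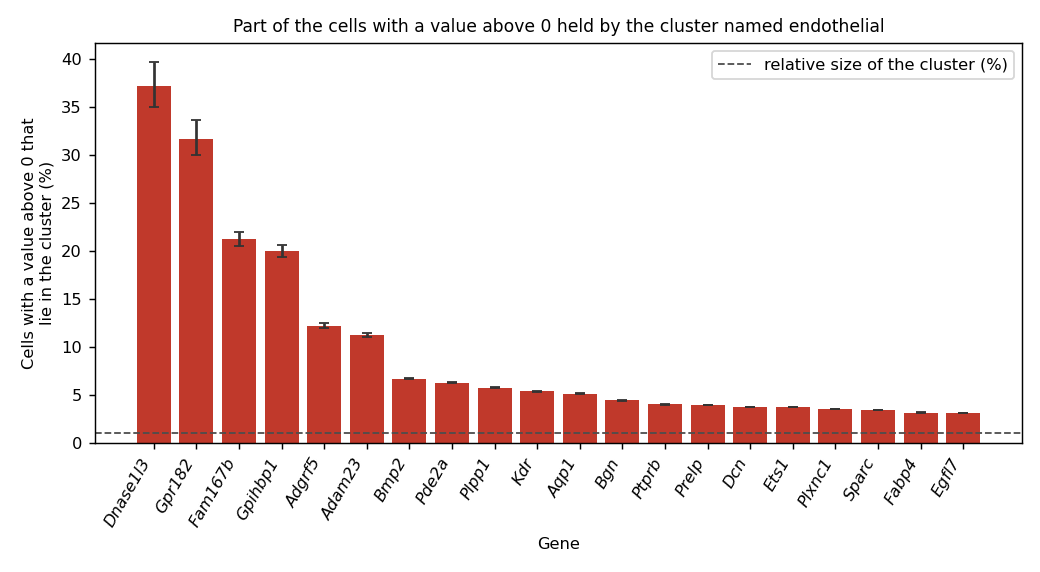
Part of all cells with a value above 0 that lay in the cluster named endothelial (%, vertical axis from 0), for the 20 genes with the highest values; error bars cover rounding of the outside share alone, and the dashed line is the relative size of the cluster, 0.991%. Dnase1l3 and Gpr182 stand at 37.2% and 31.7%, and Dcn, Sparc and Fabp4 lie under 4%.

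Values above 0 outside the cluster were common for many cell type genes in this table, as for the 23 Kupffer genes, with a median share of 22.1% outside the Kupffer cluster, and for 8 B cell genes, with 26.25% outside the B cell cluster. For 7 neutrophil genes the median outside the neutrophil cluster was 24.2%. It was lower for 25 stellate genes outside the HSC / fibroblast cluster (5.6%) and for 10 T and NK cell genes outside the T cell cluster (3.05%). The study's methods describe a merged matrix and a selection of variable genes, and name no integration step. The correction of the authors' p-values counted 2000 genes, so the values may still have been integrated across the libraries. A value above 0 may then not stand for a transcript in that cell, which holds for every share given here, inside or outside a cluster, and was not tested.

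The comparison with the HSC / fibroblast cluster covered 535 listed genes, 30.5% of the 1755. Of the 98 genes of the cluster named endothelial, 67 were also listed there, which is 68.4% of the endothelial list and 12.5% of the HSC / fibroblast list. In all 67 the share of cells was higher in the HSC / fibroblast cluster, by 14.6 to 74.1 percentage points, with a median of 78.9% against 29.6%. High shares were general in that cluster: 531 of its 535 rows had a share of at least 25%, with a median of 73.7%, so a higher share there is not particular to the shared genes. The shares of that cluster are also coarse: its 535 rows hold 16 different values, at least 5.2 percentage points apart, whereas the smallest step was 0.9 points in the cluster named endothelial and 0.3 points in Kupffer cells. Such steps arise where a share is taken over few cells, and the sampling error of these shares was not computed. Depth per cell is unknown for both clusters, and its part in this difference was not tested.

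The shared genes included those of the vessel wall as well as those of matrix. Of the 25 genes with the largest difference in the cluster named endothelial, 23 were listed for HSC / fibroblast. Kdr and Ctla2a, which encodes a protease inhibitor, were the other two. Dcn, Postn, Sparc, Igfbp7, Prelp, Bgn, Tgfbi and Col4a1 were each found in 100% of the HSC / fibroblast cluster, and Ehd3 and Maf were too. Among the endothelial genes, Ptprb was found in 94.7% of that cluster, Gpr182 and Adgrf5 in 78.9%, Fabp4 in 73.7%, Dnase1l3 in 68.4% and Gpihbp1 in 57.9%. The gap was narrowest for Egfl7 (52.6% against 38.0%), Bmp2 (47.4% against 28.7%) and Clec4g (52.6% against 33.3%). Of the 98 genes, 22 had HSC / fibroblast as their only other cluster, and 21 of these had a higher share inside the cluster named endothelial than outside it. In the cells of neither cluster, computed from the shares and the relative sizes, Dcn was found in 12.1%, Fabp4 in 15.2%, Gpihbp1 in 1.20% and Gpr182 in 0.465%.

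**Figure D3:**
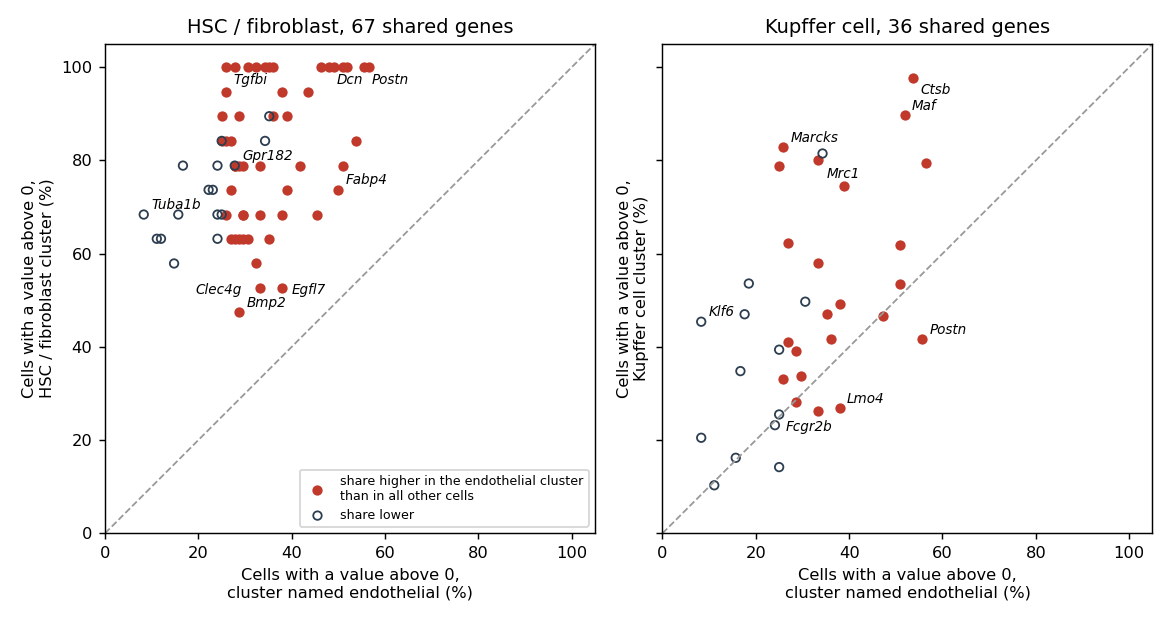
Share of cells above 0 in the cluster named endothelial (%, horizontal axis) against the share in the HSC / fibroblast cluster (left, 67 shared genes) and the Kupffer cell cluster (right, 36 shared genes); filled points are genes with a higher share in the cluster named endothelial than in all other cells, and open points genes with a lower one. All 67 points on the left lie above the dashed line of equal shares, and 28 of 36 do on the right.

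Many genes of endothelial cells were listed for HSC / fibroblast and not for the cluster named endothelial. Of 36 vascular endothelial genes chosen, 20 were in the table, which holds only genes that some cluster lists. A gene can be there through HSC / fibroblast alone, so the count for that cluster is no test. Of the 20, 18 (90.0%) were listed for HSC / fibroblast, beside 30.5% of all 1755 genes. The cluster named endothelial listed 6 (30.0%), beside 5.58% of all genes, and all 6 were among the 18. The HSC / fibroblast list is also the longer one, with 535 genes against 98. Pecam1 and Cdh5, adhesion proteins of endothelial junctions, were each found in 73.7% of the HSC / fibroblast cluster and were listed for Kupffer cells too, and the TGF-β co-receptor Eng was found in 100%. Plvap, which spans the diaphragms of endothelial pores, stood at 89.5% there, and Stab2 at 73.7%. For some of these genes the share outside HSC / fibroblast was low enough to limit the share that the cluster named endothelial can have. The factor Sox18 (68.4% of HSC / fibroblast) and the sinusoidal gene Oit3 (63.2%) were found in 0.2% of the cells outside, which allows at most 25.2% of the cluster named endothelial. Robo4, Cldn5 and the Wnt enhancer Rspo3, a gene of endothelium around the central vein, allow at most 15.1%. Of the 12 vascular genes in this position 5 had a limit under 100%, and of the 7 sinusoidal genes 3 had one. For Pecam1, Cdh5, Eng and Stab2 the outside shares set no limit. The same held for 13 of 22 stellate genes, Lrat, Des and Reln among them, and the other 9 had limits under 100%, with at most 5.04% for the guanylate cyclase subunit Gucy1a1, 15.1% for Hand2 and 25.2% for Lhx2 and Sod3. Over the 468 genes listed for HSC / fibroblast and not for the cluster named endothelial, the limit was under 50% for 44 genes and under 25% for 22.

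The stellate list was fuller for HSC / fibroblast, as were most of the lists compared here. Of 30 stellate genes chosen, 25 were in the table, and 25 were listed for HSC / fibroblast, with a median share of 94.7%. A gene is in the table only if some cluster lists it. This count can therefore be full for that reason alone, and it does not test what the cluster is. Dcn, Prelp and Tgfbi, 3 of the 25 (12.0%), were listed for the cluster named endothelial, with a median of 32.4%. Over all genes, 30.5% were listed for HSC / fibroblast and 5.58% for the cluster named endothelial. All 3 encode matrix proteins. Lrat, the enzyme that makes retinyl esters, Des, Reln, Hgf and the receptor Pdgfra were listed for HSC / fibroblast and not for the cluster named endothelial. Sinusoidal endothelial genes were the fullest list of the cluster named endothelial, with 10 of 18 listed (55.6%, against 5.58% of all genes). HSC / fibroblast listed 14 of the 18 (77.8%, against 30.5%). Kdr, Clec4g and Fcgr2b, which were given as markers of the cluster named endothelial, are among the 10. The list was also chosen with earlier results of these data known, so its count does not test what the cluster is. Of the 10, Kdr, Mrc1 and Cd36 were not listed for HSC / fibroblast.

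**Figure D4:**
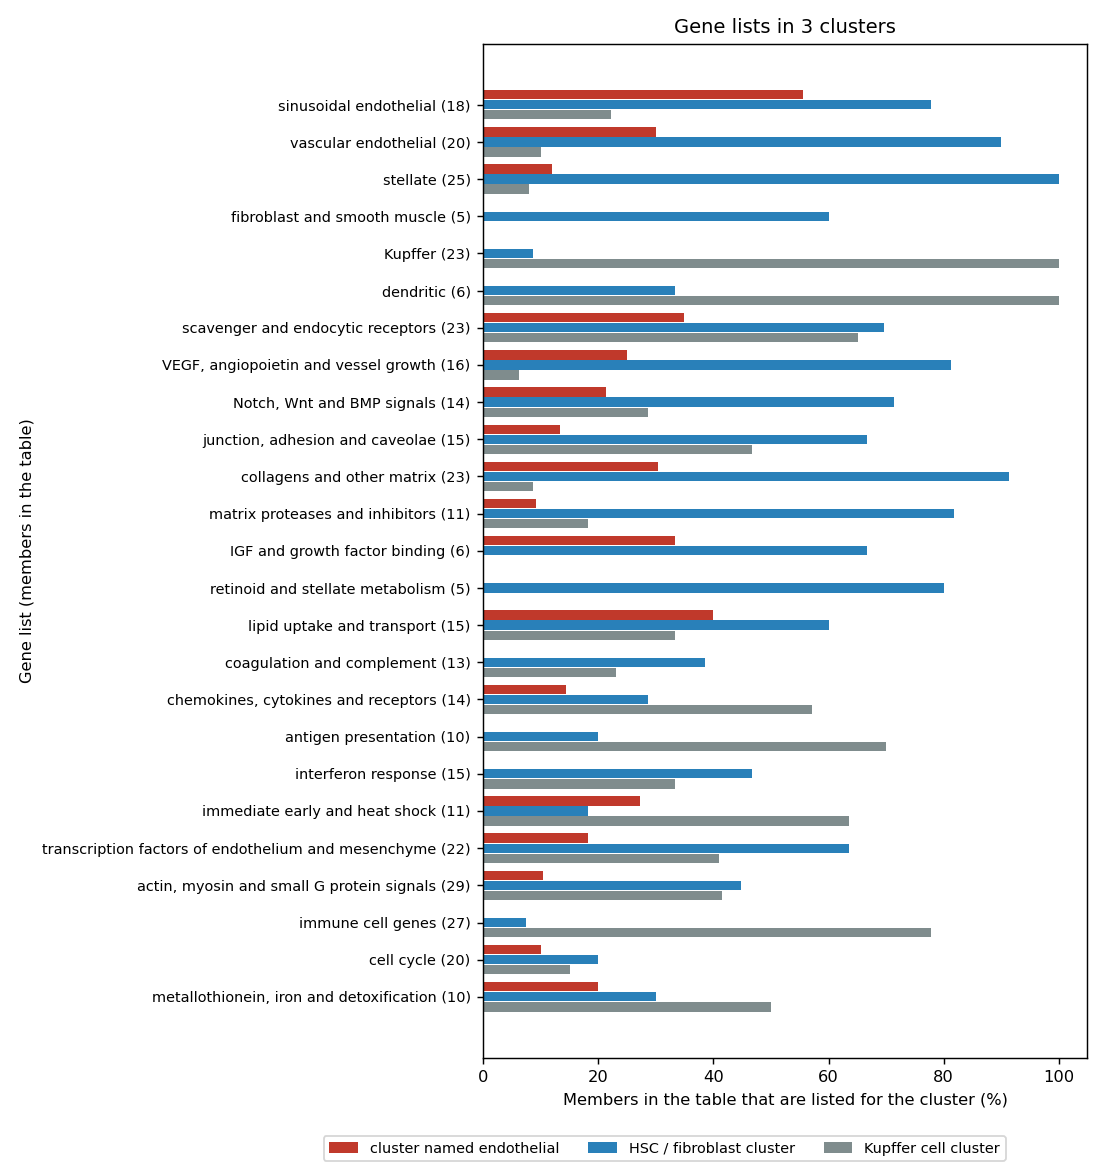
Percentage of the members of each gene list found in the table (number in parentheses) that were listed for the cluster named endothelial (red), HSC / fibroblast (blue) and Kupffer cells (grey); lists with under 5 members in the table, or listed for none of these clusters, are left out. The cluster named endothelial has its longest bar for sinusoidal endothelial genes (55.6%) and none for Kupffer or immune cell genes, and the HSC / fibroblast bar is longer than the red one in every list but that of immediate early and heat shock genes.

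Kupffer cells had 499 listed genes, 28.4% of the 1755, and 36 of these were shared with the cluster named endothelial. This is 36.7% of the endothelial list and 7.21% of the Kupffer list. The share was higher in Kupffer cells for 28 of the 36 genes and lower for 8. Mrc1 was found in 80.1% of Kupffer cells, Maf in 89.7%, Ctsb in 97.7%, Zeb2 in 78.8% and the actin-linked protein Marcks in 82.8%, each at least 37.8 percentage points above the cluster named endothelial. Kupffer cells held 14.7% of all cells with Mrc1 and the cluster named endothelial 2.26%. The order was the opposite for Postn (41.7% of Kupffer cells against 55.6%), for Lmo4 (26.8% against 38.0%) and for Fcgr2b (26.2% against 33.3%). The table holds only genes that some cluster lists, and 23 of 24 Kupffer identity genes were in it. They include Clec4f, Cd5l and the C1q chains. Of these 23, 23 were listed for Kupffer cells, a count that can be full for that reason alone. None of them (0) was listed for the cluster named endothelial. None of 27 immune cell genes, 10 antigen presentation genes or 10 T and NK cell genes was listed for it, and neither were any of 19 hepatocyte genes, but at a background of 5.58% few or no members of lists of this size would be listed.

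The remaining lists gave few members. Of 16 genes of VEGF, angiopoietin and vessel growth, 4 were listed for the cluster named endothelial (Kdr, Egfl7, Gpr182 and Ptprb) and 13 for HSC / fibroblast, among them the VEGF receptors Flt1 and Flt4. Of 23 matrix genes, 7 and 21 were listed, and of 23 scavenger and endocytic genes 8 and 16. Over all genes, 5.58% were listed for the cluster named endothelial and 30.5% for HSC / fibroblast. Kupffer cells listed 2 of the matrix genes and 15 of the scavenger and endocytic genes, beside 28.4% of all genes. For the cluster named endothelial, the list for lipid uptake and transport had 6 of 15 genes listed. Of these 6, Fabp4, Cd36, Gpihbp1 and Plpp1 act on lipids or lipoproteins. The water channel Aqp1 and the nuclease Dnase1l3 do not do what the name of the list says. Of 14 genes for Notch, Wnt and BMP signals, Bmp2, Id2 and Smad7 were listed, and Bmp2 alone had a higher share inside. Interferon response (15 genes), coagulation and complement (13 genes) and retinoid metabolism (5 genes) had 0 members listed for the cluster, and with 5.58% of all genes listed, 0 of so few genes lies near the background.

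The 36 genes with a lower share inside the cluster came from 9 of the 10 functional groups, with 9 transcription and chromatin genes, 7 signalling genes and no matrix gene. Every row of the table has a higher mean in the cluster by its listing limit, so these genes combined a higher mean with fewer positive cells. Their shares outside ran from 27.0% to 92.7%, with a median of 36.35%, against 22.65% inside. Clic1, a chloride channel protein, was found in 16.7% against 38.4%, the tubulin Tuba1b in 8.3% against 29.2%, the small modifier Sumo2 in 16.7% against 36.8% and the condensin subunit Smc4 in 16.7% against 31.3%. Among regulators, Klf6 was found in 8.3% against 29.2%, the TGF-β inhibitor Smad7 in 21.3% against 40.6%, Id2 in 30.6% against 45.6% and Jun in 37.0% against 48.0%. Lepr, the leptin receptor, was listed for no other cluster, with 20.4% against 37.6%. The differences smallest in size among these genes were for Fgd4 (24.1% against 32.8%) and for Selenop, the selenium carrier made by hepatocytes. Selenop had the highest share of all 98 genes (83.3% against 92.7%). T cells or B cells also listed 24 of the 36 genes (66.7%), beside 45.5% of all 1755 genes. HSC / fibroblast listed 16 (44.4%), beside 30.5% of all genes. None of the 16 had a lower share there, and a lower share was rare in that cluster, with 4 of its 535 rows. Of the 13 that Kupffer cells listed, 8 had a lower share in Kupffer cells too, beside 74 of all 499 Kupffer rows (14.8%).

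**Figure D5:**
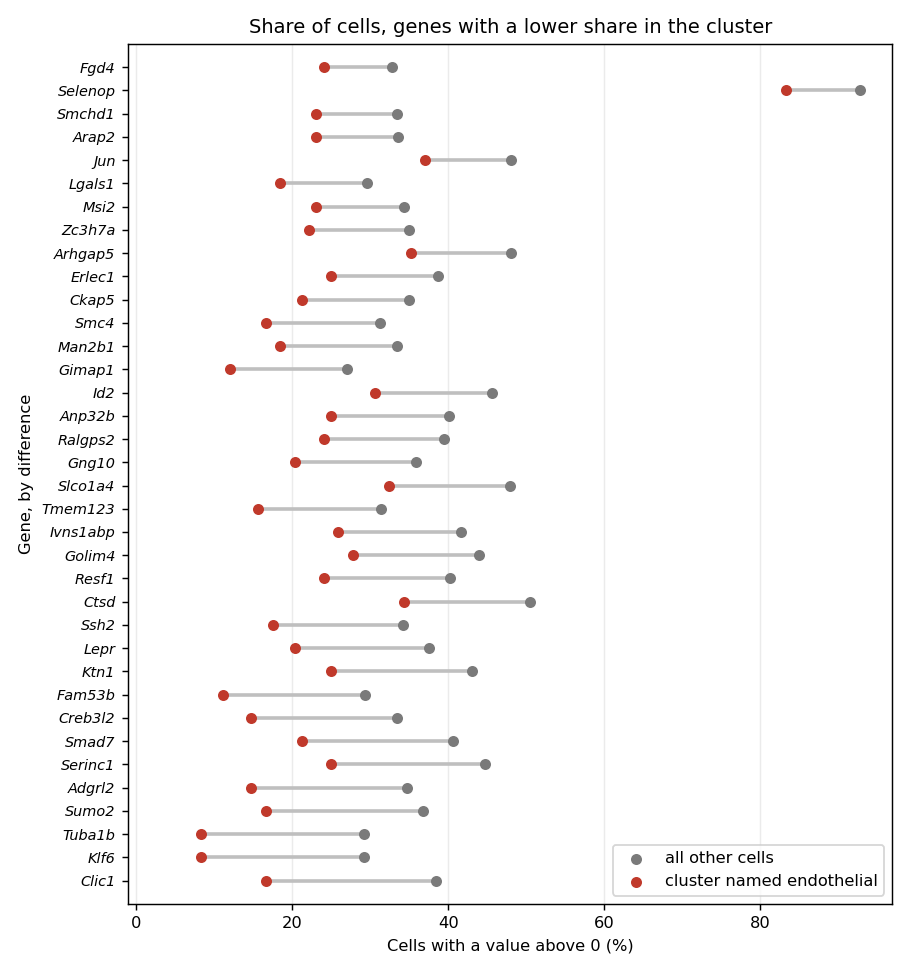
Share of cells above 0 (%, horizontal axis) for the 36 genes listed for the cluster named endothelial (red) with a lower share there than in all other cells (grey), in order of the difference. Outside shares start at 27.0%, and Tuba1b and Klf6 have the lowest shares inside (8.3%).

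Listing limits apply to all of these counts. In every row the log2 fold change was 0.25 or more, a share of at least 25% inside or outside, and an unadjusted p of at most 0.01, so a gene that was not listed for a cluster can still be expressed there. The genes just inside the limit on the share were Plpp1 and Zeb2, with 25% inside the cluster, and none with a higher share inside lay below that value.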

How the data were processed

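Hepatic cells of PBS and rIL-33 mice were sequenced as 1 10x Genomics library per condition. Per the study's methods, the authors aligned reads to mm10 with Cell Ranger and used Seurat: cells with under 200 or over 3000 genes or over 50% mitochondrial counts were removed (the upper limit was set against doublets), values were scaled to 10000 and log transformed, and clusters were named by hand. The deposited marker table gives the fraction of cells with a value above 0 inside and outside each cluster, over both libraries, to 3 decimals, printed here in percent. The log2 fold change, p-value and adjusted p-value columns hold the authors' own comparisons, and were used solely to find the listing limits and how many genes entered the correction. The deposited table of hepatocyte clusters was not used here. No doublet caller was run.

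Relative cluster sizes were solved by least squares with SciPy 1.17.1 from the shares of genes listed for at least 2 clusters, since inside and outside shares of a gene must give 1 overall share, and the procedure was tested on simulated data. The share of positive cells held by a cluster, the share in the remaining cells and the largest share possible for an unlisted gene (with a rounding allowance of 0.05 percentage points) follow from these sizes. Python 3.11.15, pandas 2.3.3, NumPy 2.4.6 and matplotlib 3.10.9 were used. Gene coordinates are from GENCODE M21 (GRCm38) and promoters from RefSeq. Named genes were those with the largest difference or ratio of shares, the 4 given markers and members of the lists. The cluster and the gene lists were chosen with earlier results of these data known, and the functional groups and motifs after the gene names were seen. With 1 library per condition, pooled, no test was run. The deposited table gives no number of cells per cluster, so no intervals were computed for the shares.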

Additional observations from a re-analysis of the deposited data

How the results depend on the processing

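Of 23 alternatives over 13 results, 4 were counted as moved and 19 as not moved. Some of these 19 still changed: a share of at least 25% inside left 74 of the 98 genes, with 56 shared with HSC / fibroblast and 27 with Kupffer cells. That filter could not change the sinusoidal, vascular, stellate and matrix counts, since every listed gene with a higher share inside already reached 25%. The tally is therefore no measure of robustness. With only genes whose share was at least 10 percentage points higher inside, the list of the cluster named endothelial had 48 genes in place of 98, with 41 in place of 67 shared with HSC / fibroblast and 13 in place of 36 shared with Kupffer cells. With only genes listed for no other non-hepatocyte cluster, 7 genes remained. No paired analysis was possible because each condition had 1 library and the table pools both. The depth per cell is unknown, so a low share can come from few transcripts per cell as well as from few cells, and the shares carry a sampling error that was not computed, most of all in the HSC / fibroblast cluster, where they move in steps of at least 5.2 percentage points.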

Other observations

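T cells shared 37 of the 98 genes (37.8%), near the 34.1% of all 1755 genes listed for T cells, and B cells shared 35 (35.7%), beside 29.1% of all genes. Red blood cells shared 20 genes (20.4%, beside 18.2% of all genes), among them Cd36, Aqp1 and Plpp1. Hepatocyte1, Hepatocyte2 and Hepatocyte3 shared 0 genes. They listed only 1.77%, 0.57% and 2.11% of all genes, so 0 lies near that background. Hepatocyte4 and Hepatocyte5 shared 12 each (12.2%, beside 25.2% and 24.7% of all genes). All 12 had a higher share in the hepatocytes. High shares were general there, with medians of 71.8% over all Hepatocyte4 rows and 89.4% over all Hepatocyte5 rows. Kdr, Fam124a, Gng11 and Lepr were listed for no other cluster. Serinc3, a membrane protein, was listed for 7 others.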
